A study of Mus musculus with 9 samples.

Results

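The signal transducers and activators of transcription (STATs) and the interferon regulatory factors (IRFs) of macrophages were followed in sorted mouse liver macrophages through 9 genes, Stat2, Stat3, Stat5a, Stat5b, Stat6, Irf1, Irf4, Irf5 and Irf8. These are the rows of the raw count table that carry those symbols, 9 of 23413 rows, and all 9 passed the filter on low counts that left 11393 genes for testing. RNA was sequenced from F4/80+CD11b+ cells sorted from the liver, which the study calls Kupffer cells (KCs), the resident macrophages of the liver, and which its methods further restrict to Gr1low cells. The animals were male C57BL/6 mice, 5 weeks old when the diets began, with no engineered allele named for these groups. The ND group (2 libraries) had a normal diet. The Veh group (3 libraries) and the DPI group (4 libraries) had a high-fat diet (HFD) for 8 weeks, with injections every 5 days from week 3 of vehicle (PEG3000) or of diphenyleneiodonium (DPI), the compound under test, at 2 mg/kg. The labels give each library as 1 mouse, whereas the study describes more mice per group than there are libraries, and whether cells of several mice were pooled is not given in the sources used here. A protocol field shared by all samples, ND included, instead describes purified cells in DMSO or 500 nM DPI for 24 h, so the labels do not settle which treatment these libraries had, and the in vivo schedule of the series design was followed here. No injections are given for ND, so Veh and ND differ in diet and may also differ in vehicle injection. Their comparison cannot tell these apart, while that of DPI with Veh asks what the compound changed on the high-fat diet.

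STATs wait in the cytoplasm until Janus kinases (JAKs) at a cytokine receptor phosphorylate them. They then pair, enter the nucleus and bind GAS elements, whereas STAT2 acts with IRF9 in the complex ISGF3, which binds the interferon-stimulated response element (ISRE). IRFs share a DNA-binding domain that reads the GAAA repeats of the ISRE and related sites, alone or with partners such as PU.1 or BATF. Phosphorylation controls much of the activity of both families and is not measured by mRNA counts.

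Because several of these genes are themselves read by STATs and IRFs, their promoters were searched for both elements. All 9 had entries in the RefSeq promoter table (GRCm38.p6), 13 windows in all, each from 250 bases before a gene's start to 50 after it. The GAS letters searched were TTCNNNGAA, which read the same on both strands, and the ISRE letters were GAAANNGAAA on either strand. Irf8 held 2 GAS matches, 171 and 153 bases before its start, Irf1 held 1 GAS match 90 bases before its start, and Stat2 held 1 ISRE match 222 bases before its start. The stretches are shown because they hold all the matches to these letters among the 13 windows. All are printed as the + strand with the GAS and ISRE matches in capitals, and the Stat2 match reads as the ISRE letters on the - strand.
Irf8, chr8:120736171-120736229: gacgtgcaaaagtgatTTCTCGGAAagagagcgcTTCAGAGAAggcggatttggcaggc
Irf1, chr11:53769908-53769948: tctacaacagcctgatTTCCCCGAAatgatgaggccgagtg
Stat2, chr10:128270260-128270301: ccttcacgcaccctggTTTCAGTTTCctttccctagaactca
Of the 32851 promoters in the table, 8.3% held the GAS letters and 3.44% the ISRE letters. The form with a wider gap that STAT6 prefers, TTCNNNNGAA, was in 6.95% of promoters and, among these 9 genes, once in Stat2, after the ISRE match and not overlapping it, within the stretch shown but in lower case. These matches describe the sequence and do not show that a factor bound there.

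Library totals ran from 3534325 to 15585775 counts, and 27% to 44.5% of them fell on Rn45s, the ribosomal RNA precursor. The biological coefficient of variation was 0.65, and the rank correlation between the ND libraries was 0.74, against 0.867 to 0.88 in Veh and 0.838 to 0.887 in DPI. The cell type label was checked against 11 genes that mark KCs. Clec4f had 0 and 244 counts in ND, 42, 0 and 0 in Veh and 219, 6, 4 and 6 in DPI, and Marco was at 0 in 8 of the 9 libraries. Without Id3, which other leukocytes also express, the 10 remaining KC genes summed to 15.8 to 109 CPM (counts scaled to TMM-adjusted library sizes). The 8 monocyte genes, Plac8 and Ly6c2 among them, summed to 4210 to 8750 CPM and the 10 macrophage genes to 15600 to 44700 CPM. Lyz2 had by far the most counts of the macrophage genes, from 62983 in Veh 1 to 700389 in DPI 1, and carries most of that sum. The neutrophil genes, 10 in the table, summed to 1480 and 3390 CPM in ND, 2600 to 4030 CPM in Veh and 937 to 5770 CPM in DPI, and the 6 eosinophil genes to 8.74 and 45.9 CPM, 7.19 to 13.1 CPM and 14.8 to 121 CPM. For DPI against Veh, 3 neutrophil, 3 eosinophil, 3 endothelial and 2 macrophage genes passed the threshold used below as higher and 0 of these lists as lower, while 1 KC gene passed as lower, and their part in the DPI against Veh values below was not tested. The markers thus go against a pure KC label, and the cells are called liver macrophages below. The study claims no pure sort, since its methods describe the sorted macrophages as mostly KCs. In such bulk RNA, fewer cells of a type and less RNA per cell cannot be told apart.

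The 9 genes covered a wide range of levels. Per kilobase of annotated exon, Irf5, which acts below Toll-like receptors and MyD88, was the most abundant, with a median over the 9 libraries of 85.3 CPM per kb and a range of 53.1 to 132. Irf1, an interferon-gamma response gene, followed at 28.5 CPM per kb and Irf8, which directs monocyte and dendritic cell development, at 22.2. Stat6, the effector of IL-4 and IL-13, had a median of 16.1 CPM per kb and Stat3, the effector of IL-6 and IL-10, of 14.9. Stat2 had 6.98 CPM per kb and Stat5b 6.5. Irf4, a factor of B cells, plasma cells and some dendritic cells, and Stat5a were lowest at 3.37 and 2.71 CPM per kb. Mean levels placed Irf5 at the 96.7 percentile of tested genes with a length and Stat5a at the 50.7.

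Only the steps from Irf5 to Irf1 and from Stat3 to Stat2 held in 9 of 9 libraries. Irf8 was above Stat6 in 8 libraries, Irf1 above Irf8 in 7 and Stat5b above Irf4 in 7. Stat6 exceeded Stat3 in 6 libraries, Stat2 exceeded Stat5b in 6 and Irf4 exceeded Stat5a in 6, so these pairs did not differ beyond their spread. Exon lengths came from GENCODE M21 and were found for 98.9% of tested genes. The annotation the authors counted on is not given in the sources used here, so the per-kb levels rest on another gene model than the counts may.

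**Figure D1:**
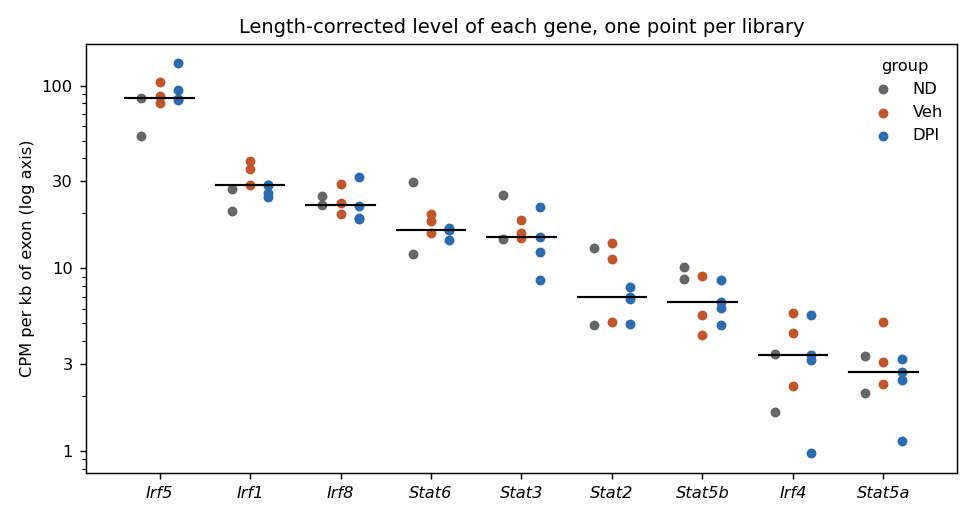
Level of each STAT and IRF gene in CPM per kb of exon on a log axis, one point per library, coloured by group, with the median of the 9 libraries as a bar. Irf5 lies above the other genes in every library, at 53.1 to 132 CPM per kb, and Irf4 and Stat5a lie lowest.

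The genes also differed in how steady they were. Irf8 was the steadiest, with a ratio of the highest to the lowest library of 1.71, and Irf1 was next at 1.87. Among the 6760 genes with at least 10 counts in every library, whose median ratio was 3.48, these lie at the 3.68 and 7.29 percentile. Stat5b (2.33), Stat6 (2.46), Irf5 (2.49), Stat2 (2.81) and Stat3 (2.92) were also below that median, and Stat5a (4.44) and Irf4 (5.84) were above it. The least steady members were also the least abundant, with 24 to 315 counts for Stat5a and 14 to 268 for Irf4.

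None of the 9 genes differed between groups beyond the spread between libraries in edgeR's quasi-likelihood test. At the threshold of the study's methods, an unadjusted p under 0.05 with at least a 2-fold change, 0 of 9 passed in each comparison, while 11.7% of all tested genes passed for Veh against ND, 2.84% for DPI against Veh and 9.29% for DPI against ND. Nor did any reach an adjusted p under 0.05, which 0.0614%, 0.0% and 0.00878% of genes did. Neither was any of the 9 under an unadjusted p of 0.05, which 1479, 470 and 1224 genes were in these comparisons, in the same order. DESeq2 also passed 0 of the 9 at the threshold with a fold in each comparison.

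By the overlap of single libraries, Irf1 was higher in every Veh library than in both ND libraries, 1 of 9 genes where 15.0% of all genes did so and 12.5% lay wholly lower. Stat5b was lower in every DPI library than in both ND libraries, where 8.5% of all genes were and 11.7% lay wholly higher. Between DPI and Veh the libraries of all 9 genes overlapped, and 3.38% of all genes were wholly higher and 2.48% wholly lower. The log2 fold changes of the 9 were positive in 6 and negative in 3 for Veh against ND, with a median of 0.17 beside 0.03 for all genes. For DPI against Veh 2 were positive and 7 negative, with a median of -0.18 beside 0.04, and for DPI against ND 3 were positive and 6 negative, with a median of -0.17 beside 0.04. These tallies turned on single libraries, to 8 positive and 1 negative for Veh against ND and 7 positive and 2 negative for DPI against ND without ND 1, and to 4 positive and 5 negative for Veh against ND without ND 2 or with scaling by library size alone. The number of negative genes for DPI against Veh was between 6 and 8 over the alternatives, a count that does not say which genes. The comparisons share libraries, so these signs are not separate evidence. Scaling by library size alone moved the median of all genes to -0.26 for Veh against ND, 0.12 for DPI against Veh and -0.17 for DPI against ND. It also turned the split of genes past the fold rule from 801 higher and 528 lower to 539 and 933, from 171 and 153 to 196 and 101, and from 711 and 347 to 546 and 624.

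**Figure D2:**
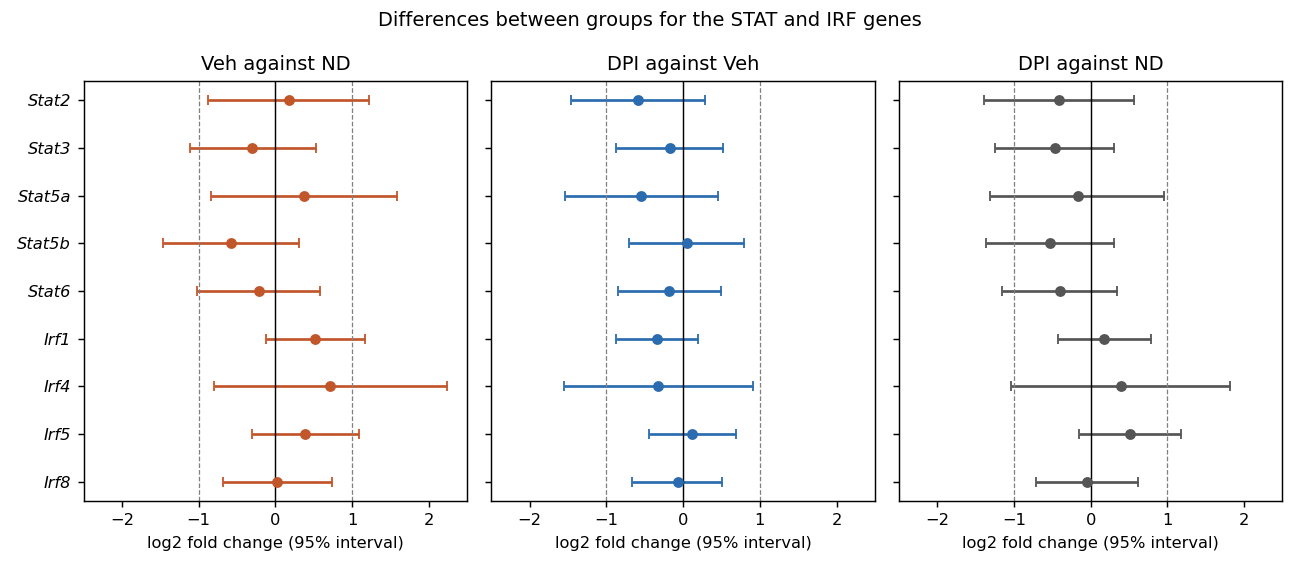
Log2 fold change of each STAT and IRF gene in the 3 comparisons, with 95% intervals from the edgeR fit and dashed lines at a 2-fold change. Every interval includes 0, and for DPI against Veh 6 of the 9 lie between the dashed lines.

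How small a difference these libraries could have hidden varied by gene. For DPI against Veh, the 95% interval lay within a 2-fold change for 6 of the 9, Irf8, Irf1, Stat5b, Irf5, Stat3 and Stat6, against 14.7% of all genes. On the log2 scale those intervals were narrowest for Irf1, from 0.548 to 1.14-fold, and Irf5, from 0.73 to 1.62-fold. Irf4 could still have differed from 0.34 to 1.88-fold and Stat2 from 0.364 to 1.22-fold. For Veh against ND only Irf8 was held within 2-fold, from 0.626 to 1.65-fold, where 5.85% of all genes were, and for DPI against ND Irf8 and Irf1 were, where 7.75% were. With single libraries left out the count was 1 for Veh against ND each time, between 4 and 6 for DPI against Veh, and between 1 and 3 for DPI against ND, with 1 without ND 2.

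Stat2, the STAT of ISGF3, was the gene with the smallest p for DPI against Veh. It stood at 76.5 and 28.9 CPM in ND, at 67.3, 30.1 and 81.3 CPM in Veh and at 47.0, 29.2, 41.4 and 40.3 CPM in DPI. ND and Veh each held high and low libraries, and the DPI libraries lay between these or beside the low ones. On the log2 scale the difference was -0.59 (standard error, SE, 0.40, unadjusted p = 0.169, adjusted p = 0.999 from edgeR) for DPI against Veh and 0.17 (SE 0.49) for Veh against ND, which was -0.17 with scaling by library size alone. Leaving out Veh 2 moved the first to -0.91 with an unadjusted p of 0.0399, still under a 2-fold change, and leaving out Veh 3 moved it to -0.30. Veh 2 also had the smallest share of Rn45s in its group, 27% beside 36.9% and 44.5%. It was the lowest Veh library for Irf1, Csf2rb2, Cxcl9, Cd274 and Bcl6 but the highest for Irf5, Ccl5, Il1b, Myc and Socs3. In DPI the share was 27.7%, 42.6%, 30% and 30%, and DPI 2, with the largest, was the lowest DPI library for Stat2 and the highest for Cxcl9. The part of this share in these values was not tested.

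Stat3 had 241 and 138 CPM in ND, 175, 140 and 148 CPM in Veh, and 117, 82.5, 142 and 206 CPM in DPI. The DPI libraries spanned the Veh range on both sides. It differed by -0.30 (SE 0.38) for Veh against ND and -0.17 (SE 0.32) for DPI against Veh on the log2 scale. For DPI against ND it was -0.47 (SE 0.36, unadjusted p = 0.216), and without DPI 4, its highest DPI library, -0.73 with an unadjusted p of 0.0471, while without ND 1, the highest library of all, it was -0.01.

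Stat6 showed its spread in ND rather than under HFD. Its ND libraries held 130 and 52.9 CPM, those of Veh 68.4, 79.6 and 87.5 CPM and those of DPI 62.8, 71.0, 70.9 and 73.0 CPM. The 7 HFD libraries all lay between the ND pair, with a coefficient of variation of 12.2% in Veh and 6.47% in DPI against 59.7% in ND. As log2 fold changes, Veh against ND gave -0.22 (SE 0.37), positive at 0.58 without ND 1, and DPI against Veh -0.18 (SE 0.31). DPI against ND gave -0.40 (SE 0.35), which was 0.40 without ND 1 and -0.88 without ND 2, the latter with an unadjusted p of 0.0278.

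Stat5a and Stat5b, the STATs of GM-CSF, IL-2 and IL-7 signalling, are neighbouring genes of similar sequence, and how far reads are shared between them was not measured here, so their split is given as uncertain. Stat5a had 23.7 and 14.8 CPM in ND, 36.2, 16.7 and 21.8 CPM in Veh and 19.3, 8.15, 17.4 and 22.8 CPM in DPI. Stat5b had 55.7 and 48.6 CPM in ND, 30.9, 23.9 and 50.1 CPM in Veh and 47.7, 36.0, 33.4 and 27.1 CPM in DPI. ND was the highest group for Stat5b, with 1 Veh library between its values and all DPI libraries below them. Stat5b differed on the log2 scale by -0.58 (SE 0.41, unadjusted p = 0.182) for Veh against ND, -0.53 (SE 0.39, unadjusted p = 0.192) for DPI against ND and 0.05 (SE 0.35) for DPI against Veh. Scaling by library size alone took the first to -0.91 with an unadjusted p of 0.0455, beside the shift of all genes given above. Stat5a differed by 0.37 (SE 0.56) for Veh against ND and -0.55 (SE 0.46, unadjusted p = 0.259) for DPI against Veh. Stat5b made up 70.2% and 76.7% of the counts of the pair in ND, 46.0%, 58.9% and 69.7% in Veh and 71.2%, 81.5%, 65.7% and 54.4% in DPI. That share was lower in each Veh library than in both ND libraries, and DPI overlapped both groups. The pair summed to 40.6 to 79.4 CPM. The 9 sinusoidal endothelial genes were also higher in ND than in Veh, at 147 and 247 CPM beside 9.43 to 16 CPM in Veh and 4.27 to 180 CPM in DPI. So were the 10 hepatocyte genes, at 315 and 454 CPM beside 161 to 192 CPM and 196 to 339 CPM, with some overlap between ND and DPI. Trf had the most counts of these 10 in every library, with 4882 in DPI 1, and so weighs heavily in that sum. At the fold rule 4 hepatocyte genes were lower and 0 higher, both for Veh against ND and for DPI against ND. The part of endothelial and hepatocyte RNA in the level of Stat5b was not tested.

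Irf1 had the smallest p of the 9 for Veh against ND. Its levels were 81.6 and 107 CPM in ND, 139, 113 and 153 CPM in Veh and 114, 103, 96.9 and 113 CPM in DPI. ND and Veh were separated by a small gap, from 107 to 113 CPM, and the DPI libraries, from 96.9 to 114 CPM, spanned it. Its difference on the log2 scale was 0.51 (SE 0.30, unadjusted p = 0.111, adjusted p = 0.487 from edgeR) for Veh against ND, positive with each library left out (0.34 to 0.75), and -0.34 (SE 0.25, unadjusted p = 0.194) for DPI against Veh (-0.45 to -0.25 likewise). These share the Veh libraries. For DPI against ND it was 0.18 (SE 0.28), and -0.03 with scaling by library size alone.

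Irf5 had 154 and 248 CPM in ND, 254, 304 and 234 CPM in Veh and 274, 244, 384 and 245 CPM in DPI. Only ND 1 stood clearly below the rest. Log2 fold changes were 0.39 (SE 0.32) for Veh against ND, 0.12 (SE 0.27) for DPI against Veh and 0.51 (SE 0.31, unadjusted p = 0.12) for DPI against ND. Without ND 2, so with ND 1 as the sole ND library, the last was 0.92 with an unadjusted p of 0.0411, and without ND 1 it was 0.22.

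Irf8 had nearly equal group means. Its libraries held 175 and 156 CPM in ND, 205, 140 and 161 CPM in Veh and 224, 154, 131 and 133 CPM in DPI. Group means were 166 ± 13.2 CPM (SD, n = 2), 168 ± 33.1 CPM (SD, n = 3) and 160 ± 43.6 CPM (SD, n = 4). Its log2 fold changes were 0.02 (SE 0.33), -0.07 (SE 0.27) and -0.05 (SE 0.31), and each of these signs turned when single libraries were left out.

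Irf4 was low and scattered, with 16.6 and 8.03 CPM in ND, 11.1, 21.8 and 27.8 CPM in Veh and 15.4, 4.76, 16.5 and 27.3 CPM in DPI. DPI held both the lowest library and 1 of the 2 highest. Irf4 differed on the log2 scale by 0.71 (SE 0.70) for Veh against ND, -0.32 (SE 0.57) for DPI against Veh and 0.39 (SE 0.66) for DPI against ND. The 9 B cell genes, Cd79a and Cd79b among them, summed to 32.1 and 79.9 CPM in ND, 113, 212 and 174 CPM in Veh and 43.7, 19.0, 138 and 494 CPM in DPI. The 8 genes of conventional dendritic cells, with Ccr7 the most abundant except in ND 1 and DPI 1, summed to 58.3 and 115 CPM, then 214, 316 and 208 CPM, then 134, 144, 278 and 428 CPM. DPI 4 was the highest DPI library and DPI 2 among the 2 lowest on these 3 measures, whereas ND 1, with more Irf4 than ND 2, had less of both sums. Pax5 and Ebf1 were at 0 in 3 libraries each. The 5 plasma cell genes were ordered otherwise, at 51.9 and 116 CPM in ND, 113, 212 and 180 CPM in Veh and 78.4, 123, 216 and 105 CPM in DPI, with DPI 4 below DPI 2 and DPI 3. The part of these cells in the level of Irf4 was not tested.

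**Figure D3:**
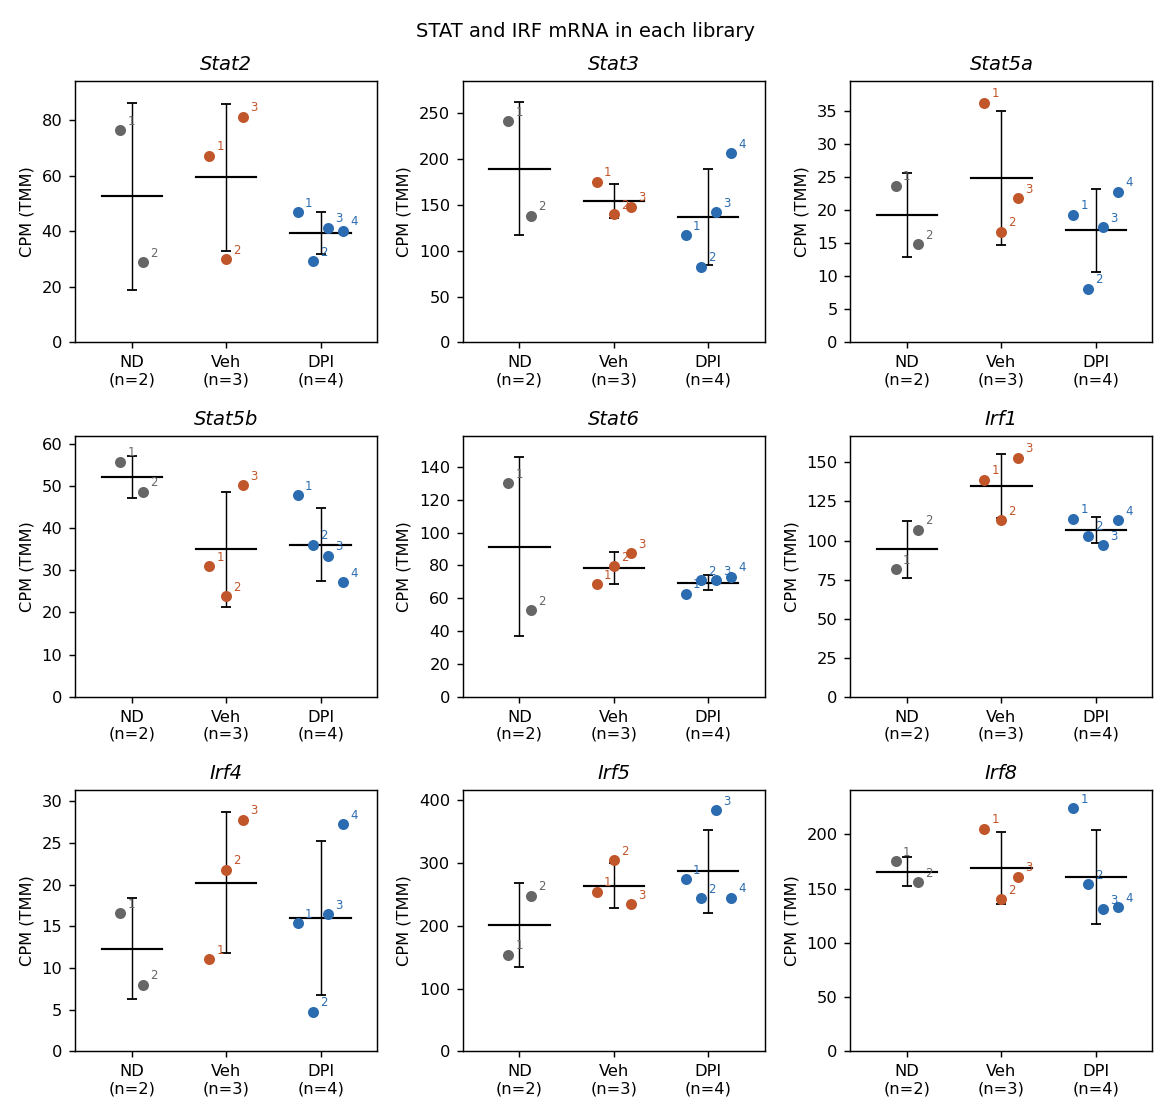
CPM of each of the 9 genes in every library, numbered by mouse, with the group mean as a bar and the SD as whiskers. Irf8 is level across groups at means of 160 to 168 CPM, Irf1 is higher in every Veh library than in ND, and Stat5b is lower in every DPI library than in ND.

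**Figure D4:**
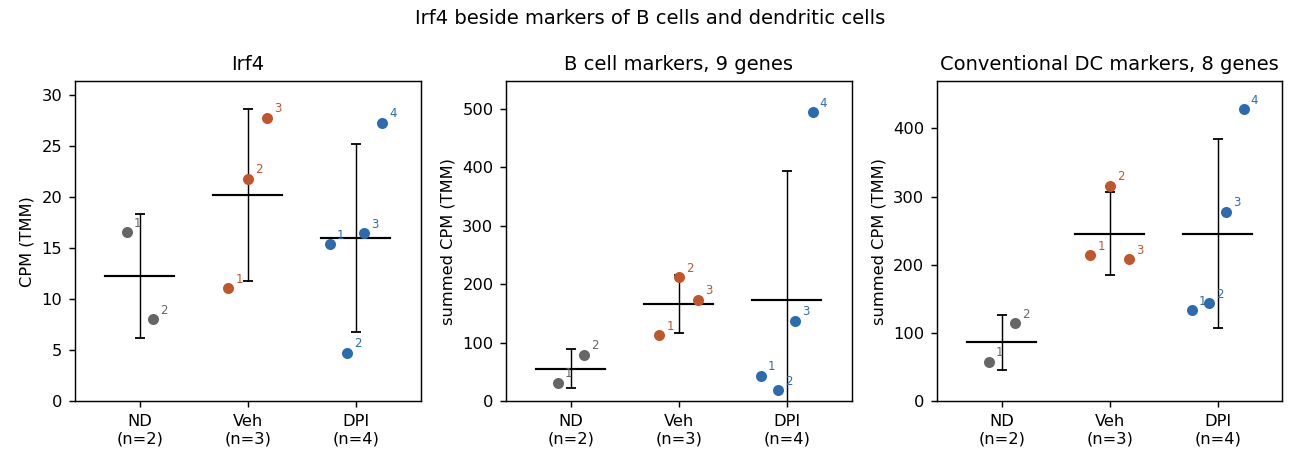
Irf4 in CPM beside the summed CPM of 9 B cell genes and of 8 conventional dendritic cell genes, per library, with mean and SD. In DPI the highest values of all 3 belong to library 4, at 27.3, 494 and 428 CPM.

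The genes lie on GRCm38, the assembly called mm10, as GENCODE M21 places them, and all are protein-coding. Stat2 (chr10:128270559-128292849, +) and Stat6 (chr10:127642986-127660957, +) are on chromosome 10. On chromosome 11, Irf1 is at 53770014 to 53778374 (+), Stat5b at 100780731 to 100850724 (-), Stat5a at 100859351 to 100885169 (+) and Stat3 at 100885098 to 100939540 (-). Irf4 is on chromosome 13 from 30749226 to 30766976 (+), Irf5 on chromosome 6 from 29526625 to 29541871 (+) and Irf8 on chromosome 8 from 120736358 to 120756694 (+). Stat3 and Stat5a run towards each other and share 72 exonic bases, while Stat6 shares 40 with Nab2, Irf1 135 with Gm17334 and Irf5 411 with Tnpo3, each on the opposite strand. Whether the counting used strand is not given in the sources used here, so reads in those bases cannot be assigned to 1 of the genes.

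The genes with the most similar profile over the 9 libraries were listed for each member by Pearson's r of log2 CPM, as a description over libraries of unequal depth. They are the highest of all tested genes over few libraries, and how high r runs there by chance was not tested. For Stat5b the leading gene was Pik3cd (r = 0.984), followed by the Janus kinase gene Tyk2 (r = 0.936). Stat3 ran closest to Tnfaip2 and to the interferon receptor gene Ifnar1 (r = 0.961 for both). Irf8 was closest to Nucb1 (r = 0.919) and the interferon-inducible gene Ifi204 (r = 0.91). The leading and next genes were Htt (0.927) and Scyl2 (0.926) for Stat2, Tiam1 (0.953) and Irak3 (0.931) for Stat5a, and Specc1l (0.975) and Pitpna (0.934) for Stat6. For Irf1 they were Lynx1 (0.956) and Sap130 (0.94), for Irf4 Aff4 (0.937) and Map1lc3b (0.922), and for Irf5 Fam49b (0.964) and S100a10 (0.956). Among the 9 themselves, the highest r was that of Stat3 with Stat5a, the overlapping pair, at 0.781, and Stat2 with Stat5a was at 0.731. Irf5 ran against Stat6, at -0.623.

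The rest of the pathway was described through lists of ligands, receptors, kinases, inhibitors, partners and targets, 167 genes of which 154 were tested. For Veh against ND 24 were higher and 2 lower at the fold rule, 16.9% of the 154 beside 11.7% of all genes. With DPI against Veh 1 was higher and 6 lower, 4.55% beside 2.84%, and with DPI against ND 11 were higher and 1 lower, 7.79% beside 9.29%. No list gene had an adjusted p under 0.05 in edgeR in any comparison. With single libraries left out the count for Veh against ND ran from 18 without Veh 1 to 37 without ND 2, and that for DPI against Veh from 2 without Veh 3 to 15 without Veh 2. Scaling by library size alone gave 14 higher and 5 lower for Veh against ND, 12.3% of the lists beside 12.9% of all genes, so the larger share in the lists was not seen under that scaling. The counts of single lists below stand beside the shares of all genes given here. They rest on few genes each and are not read as activity of a factor. Genes named from the lists were picked for the smallest p, a choice that favours groups without overlap.

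Of the other STATs and IRFs, 0 of 6 tested genes passed in any comparison, among them Irf7, the amplifier of type I interferon, at 0.47 (SE 0.45) on the log2 scale for Veh against ND, and Irf3 at -0.38 (SE 0.44). The 4 Janus kinase genes also gave 0 at the fold rule, but 1 lower for Veh against ND without Veh 3, 1 lower for DPI against ND without ND 2, and 1 lower in both comparisons with scaling by library size alone. Tyk2, the kinase of the type I interferon receptor, was lower in each Veh and DPI library than in both ND libraries, with 51.9 and 42.6 CPM in ND, 21.5, 17.8 and 38.2 CPM in Veh and 28.9, 29.9, 25.2 and 15.6 CPM in DPI. Of all genes, 12.5% lay wholly lower for Veh against ND and 8.5% for DPI against ND. Log2 fold changes of Tyk2 were -0.87 (SE 0.45, unadjusted p = 0.0759) for Veh against ND and -0.93 (SE 0.42, unadjusted p = 0.0472, adjusted p = 0.462 from edgeR) for DPI against ND. The endothelial and hepatocyte sums given beside Stat5b were also higher in both ND libraries than in every Veh library, and overlapped between ND and DPI. For DPI against ND, 4 hepatocyte genes were nonetheless lower at the fold rule and 0 higher. The part of endothelial and hepatocyte RNA in the level of Tyk2 was not tested.

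Of the ligands, 10 of 17 were tested, with 7 positive and a median of 1.04 for Veh against ND. Il27, a cytokine that signals through JAKs to STAT3, had 0 counts in both ND libraries, 19, 9 and 20 in Veh and 1, 1, 0 and 21 in DPI. Its Veh mean was 6.51-fold a floor of 3 counts per ND library, which covers counting error and not the spread between libraries. The log2 fold change for Veh against ND was 7.57 (SE 2.93, adjusted p = 0.328 from edgeR), with a 95% interval from 1.22 to 13.93. Lif had 0 and 1 counts in ND, 33, 1 and 20 in Veh and 69, 1, 2 and 1 in DPI, so Veh 1 and Veh 3 carry it in Veh and DPI 1 in DPI. Il12a, which encodes a subunit of IL-12 and is also on the list of IRF5 targets, passed as higher for DPI against ND, with 0 counts in both ND libraries, 0, 5 and 0 in Veh and 11, 1, 23 and 30 in DPI. Without DPI 3 or without DPI 4 no ligand passed for DPI against ND. For Veh against ND the list's count was 1 without either ND library, Veh 1, Veh 3, DPI 2 or DPI 3.

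Of 24 receptor genes tested, 3 were higher and 1 lower for Veh against ND, with 14 positive and a median of 0.25. Il2rb, the beta chain shared by the IL-2 and IL-15 receptors, had 0.911 and 14.8 CPM in ND, 103, 55.5 and 80.8 CPM in Veh and 24.9, 59.4, 38.2 and 37.2 CPM in DPI. On the log2 scale it was higher by 3.35 (SE 0.81, adjusted p = 0.14 from edgeR) for Veh against ND. Il2rg, the common gamma chain, was also higher in Veh, by 1.02 (SE 0.34, adjusted p = 0.273). Both chains are also used by T and NK cells, and the 8 T cell genes summed to 66.1 and 173 CPM in ND, 174 to 237 CPM in Veh and 167 to 437 CPM in DPI. The 8 NK cell genes overlapped between groups, at 57.7 and 226 CPM in ND, 128, 229 and 234 CPM in Veh and 109 to 242 CPM in DPI. The part of these cells in both receptor genes was not tested. Csf2rb2, a beta chain of the IL-3 receptor upstream of STAT5, was the receptor gene that passed for DPI against Veh. It had 119, 45.5 and 146 CPM in Veh and 43.4, 45.2, 40.8 and 43.7 CPM in DPI, so that Veh 2 lay just above the highest DPI library while Veh 1 and Veh 3 lay far above it. The difference was -1.26 (SE 0.36, unadjusted p = 0.004, adjusted p = 0.999). Csf2rb, the beta chain of the GM-CSF receptor, was at -0.83 (SE 0.31). These are paralogs, and how far reads are shared between them was not measured here. For Veh against ND the count of receptors was 2 without Veh 1 and 7 without ND 2, and for DPI against Veh it was 0 without Veh 3 and 3 without Veh 2.

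Among 17 inhibitors, Socs1 alone passed for Veh against ND, with 12 positive and a median of 0.42. SOCS1 blocks Janus kinases as a feedback of interferon and IL-4 signalling. Socs1 had 7.29 and 7.28 CPM in ND, 27.7, 22.3 and 40.1 CPM in Veh and 13.8, 20.7, 18.2 and 13 CPM in DPI. All 3 groups were separate, with DPI between ND and Veh and a small gap to Veh, from 20.7 to 22.3 CPM. Of all genes, 15.0% were wholly higher for Veh against ND, 2.48% wholly lower for DPI against Veh and 11.7% wholly higher for DPI against ND. Log2 fold changes of Socs1 were 2.04 (SE 0.53, unadjusted p = 0.00201, adjusted p = 0.166 from edgeR) for Veh against ND, -0.88 (SE 0.41, unadjusted p = 0.0502, adjusted p = 0.999) for DPI against Veh and 1.16 (SE 0.50, unadjusted p = 0.0355, adjusted p = 0.445) for DPI against ND. Without DPI 2 the count of inhibitors past the fold rule for DPI against ND was 0, and other settings also reached 0. Socs3, the feedback gene of STAT3, had -0.74 (SE 0.43, unadjusted p = 0.106) for Veh against ND. Without ND 2 the count of inhibitors that passed for this comparison was 5. Of 15 partners and activators of IRFs, 2 passed as higher, Tbk1, a kinase of IRF3, at 1.30 (SE 0.56), and Irf2bp1, with 1 and 0 counts in ND, 48, 0 and 4 in Veh and 34, 17, 56 and 20 in DPI. The list as a whole had 5 positive and 10 negative genes for Veh against ND, with a median of -0.24. Its count was 0 without DPI 3 and 1 without any single ND or Veh library. Ticam1, the TRIF adaptor gene, was lower in DPI than in ND, at -1.17 (SE 0.41, adjusted p = 0.367 from edgeR). Ticam1 was at -0.93 for DPI against Veh (SE 0.37, unadjusted p = 0.0265, adjusted p = 0.999), short of 2-fold, with 37.5, 30.1 and 48.3 CPM in Veh and 12.7, 26.5, 18.6 and 23.8 CPM in DPI, so every DPI library lay below every Veh library, as for 2.48% of all genes.

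Target lists were described factor by factor, beside the 11.7% of all genes past the fold rule for Veh against ND and 2.84% for DPI against Veh. Of 31 targets of STAT2 and ISGF3, 6 were higher and 0 lower, with 24 positive and a median log2 fold change of 0.47. They included Zbp1, a sensor of Z-form nucleic acids, at 1.65 (SE 0.45, adjusted p = 0.182), and Oas1g, with 0 counts in both ND libraries, 29, 74 and 53 in Veh and 299, 41, 5 and 47 in DPI. The Veh mean of Oas1g was 19.9-fold the floor, which covers counting error only, and its log2 fold change was 9.18 (SE 1.95, adjusted p = 0.115 from edgeR). Without Veh 1 or without Veh 3 the count was 4, and without ND 1 it was 9. For DPI against Veh 0 of the 31 passed, 21 were negative and the median was -0.20. The smallest p belonged to Ifi44, an interferon-induced gene that was not past the rule, with 2, 0 and 1 counts in Veh and 52, 16, 1 and 20 in DPI (unadjusted p = 0.0608 from edgeR), and Oas2 followed at -0.80 (SE 0.40, unadjusted p = 0.0677).

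Of 15 IRF1 targets tested, 3 were higher for Veh against ND, Cxcl9, Cd274 and Ccl5, with 13 positive and a median of 0.82, and for DPI against Veh 2 were lower, Cxcl9 and Cd274, with 11 negative and a median of -0.18. Cxcl9, a chemokine of the interferon-gamma response, had 26.2 and 24.5 CPM in ND, 137, 19.2 and 158 CPM in Veh and 34.9, 53.7, 42.9 and 36.1 CPM in DPI. Veh 2 lay below every ND and DPI library, and the other 2 Veh libraries above them all. The log2 fold changes were 2.05 (SE 0.66, adjusted p = 0.258) for Veh against ND and -1.33 (SE 0.51, adjusted p = 0.999) for DPI against Veh. Cd274, the gene of PD-L1, had 15.3 and 26.1 CPM in ND, 72.6, 27.7 and 80.0 CPM in Veh and 15.5, 17.0, 29.9 and 49.2 CPM in DPI, again with Veh 2 the low Veh library. Without Veh 1, or without Veh 3, 0 IRF1 targets passed for DPI against Veh, and without ND 2, 6 passed for Veh against ND.

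Of 8 STAT5 targets, Bcl6 and Ccnd2 were higher for Veh against ND, with 7 positive and a median of 0.93, and Bcl6 was lower for DPI against Veh, with 8 negative and a median of -0.35. Bcl6, a transcriptional repressor, had 79.4 and 38.5 CPM in ND, 180, 53.1 and 219 CPM in Veh and 41.4, 47.6, 68.3 and 72.7 CPM in DPI. Here too Veh 2 was apart from Veh 1 and Veh 3. Its log2 fold changes were 1.36 (SE 0.54) and -1.39 (SE 0.43, unadjusted p = 0.0064). Without Veh 3, 0 of the 8 passed for DPI against Veh, and without Veh 1 the count for Veh against ND was 1.

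Of 14 STAT3 targets, 2 were higher for Veh against ND, Il1rn and Myc, with 6 positive and a median of -0.02, and Il1rn was lower for DPI against Veh, with 12 negative and a median of -0.14. Il1rn, the gene of the IL-1 receptor antagonist, had 6.74 and 48.0 CPM in ND, 154, 122 and 132 CPM in Veh and 28.6, 35, 51.4 and 75.2 CPM in DPI. Its Veh libraries lay above all others, where 15.0% of all genes were wholly higher for Veh against ND and 2.48% wholly lower for DPI against Veh. The log2 fold changes were 2.31 (SE 0.66, adjusted p = 0.213) and -1.52 (SE 0.50, unadjusted p = 0.00965, adjusted p = 0.999). Without ND 2 the count for Veh against ND was 4.

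Of 15 STAT6 targets tested, 4 were higher and 1 lower for Veh against ND, with 11 positive and a median of 0.78, and for DPI against Veh 8 were negative with a median of -0.15. Ccl22, a chemokine of dendritic cells and IL-4-treated macrophages, had 3 and 1 counts in ND, 139, 43 and 184 in Veh and 102, 28, 172 and 127 in DPI, and it is also on the list of IRF4 targets. The conventional dendritic cell sum given beside Irf4 was likewise higher in every Veh library than in ND, as was that of the 6 plasmacytoid dendritic cell genes, at 1.09 and 6.16 CPM in ND, 20.1 to 29.7 CPM in Veh and 3.92 to 44.3 CPM in DPI. The part of these cells in the level of Ccl22 was not tested. Retnla, the lower gene, had 0 and 266 counts in ND and 0, 0 and 3 in Veh, so that 1 library holds its level. Ccl24 was the target lower with DPI against Veh, at -1.20 (SE 0.48). The count for DPI against Veh was 5 without ND 1 and 4 without ND 2, libraries that enter that comparison only through the filter and the shared spread. Of 6 IRF4 targets 2 were higher for Veh against ND, Ccl22 and Mgl2, and 0 passed for DPI against Veh. Mgl2, a lectin gene of IL-4-treated macrophages, had 4.22, 0.544 and 1.73 CPM in Veh and 10.7, 8.15, 7.05 and 4.69 CPM in DPI, so every DPI library lay above every Veh library, at 1.82 (SE 0.98, unadjusted p = 0.0856 from edgeR) on the log2 scale. Of all genes, 3.38% lay wholly higher for DPI against Veh. The IRF4 count for DPI against Veh was 2 without ND 1 or without ND 2, and that for Veh against ND was 0 with at least 10 counts required in every library, a filter that Ccl22 and Mgl2 do not pass. Of 5 IRF5 targets tested, 1 was higher, Ccl5, at 1.48 (SE 0.59), a gene also made by T and NK cells, and Il1b was at 0.95 (SE 0.78). The IRF5 count was 0 without Veh 2 and 2 without ND 2. Of 7 IRF8 targets 0 passed for Veh against ND, with 5 negative and a median of -0.39. The median for DPI against Veh was 0.06, with 4 positive, and Ctsc, the gene of cathepsin C, was higher at 1.08 (SE 0.48). Ctsc had 238, 302 and 196 CPM in Veh and 1090, 514, 196 and 266 CPM in DPI, so the groups overlapped, with DPI 1 far above the rest. Without Veh 1, Veh 3, DPI 1 or DPI 2 the IRF8 count was 0.

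**Figure D5:**
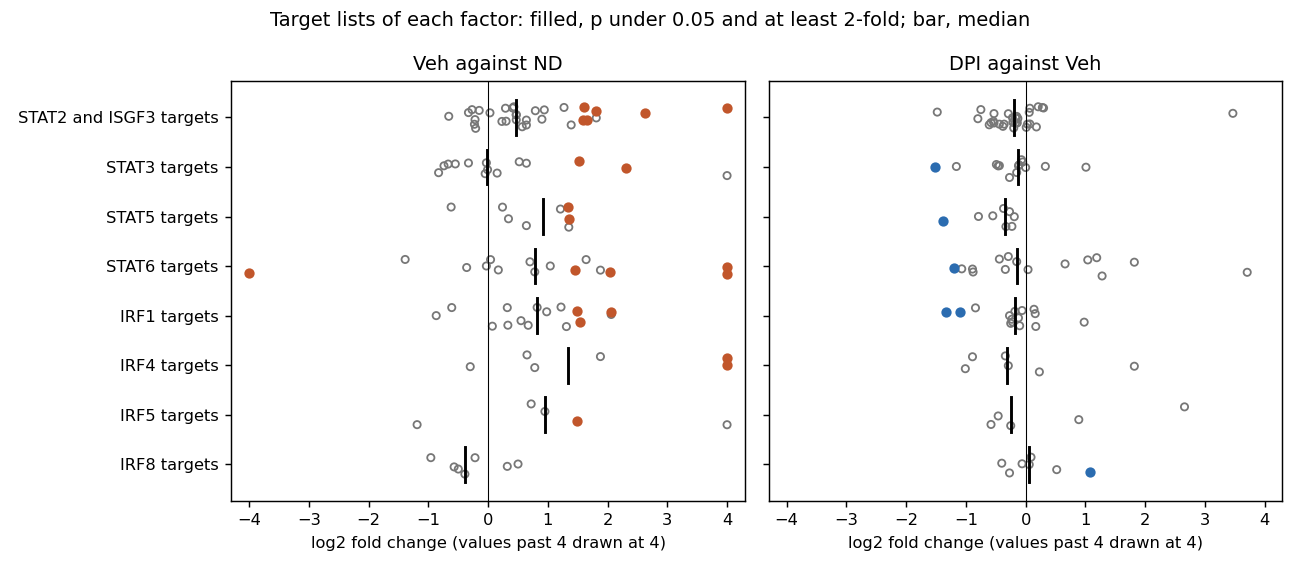
Log2 fold change of each tested target gene of the factors, for Veh against ND and DPI against Veh, with genes past an unadjusted p under 0.05 and a 2-fold change filled and list medians as bars. Values past 4 come from genes near 0 counts in 1 group and are drawn at 4. The list of STAT2 and ISGF3 targets has 6 filled genes for Veh against ND and 0 for DPI against Veh.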

How the data were processed

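RNA-seq was analysed for 9 libraries of sorted liver macrophages, grouped by the labels. The authors aligned reads to mm10 and deposited raw counts per gene. The methods name bowtie2 and RSEM for this, and the submitters' processing notes name TopHat2 and edgeR. The annotation and strand setting are not given in the sources used here. Values of the authors' own comparisons were not used.

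Counts were filtered with filterByExpr and TMM-scaled, and all 9 libraries were fitted as 3 groups with edgeR 4.0.16 (glmQLFit, glmQLFTest) in R 4.3.3, without covariates. The methods' threshold, an unadjusted p under 0.05 with a 2-fold change, was the call rule. P-values were adjusted by Benjamini-Hochberg over 11393 genes. They measure the spread between these libraries, and ND has only 2. Standard errors are the log2 fold change over the root of F, and intervals are 95%. Log2 CPM for correlations used a prior count of 2. Totals of 3534325 to 15585775 put 3 counts, the floor, at 0.184 to 1.02 CPM, which covers counting error only. DESeq2 1.42.0, other scalings, filters, thinning, the replicate block and leaving out each library were alternatives. Where the 2 ND libraries gave way to 1, the spread was taken from the other groups. Python 3.11.15 with pandas 2.3.3 made the summaries.

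Members and gene lists were chosen with earlier results of these data known. Named list genes are up to 2 per list and comparison with the smallest p. Beyond the rule, Retnla was named after its values were seen. Some items are not reported here. Same-numbered libraries shared no deviation (correlations -0.022 to 0.084), and no pair of libraries within a group differed by as little as sampling noise.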

Additional observations from a re-analysis of the deposited data

Results flagged for a closer look

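None of the 9 STAT and IRF genes had a DPI library that stood apart by Dixon's test of 1 value against a group of 4. Of the 67 genes looked at, 4 list genes did, and chance flags about 1 in 20 groups. Isg20, an interferon-induced exonuclease gene, had 43.7 CPM in DPI 4 beside 22.8 to 25.5 CPM in the others, a gap of 0.869 of the range. Il27 had 2.14 CPM in DPI 4 beside 0.0 to 0.34 CPM (0.841 of the range). Lif, a STAT3 cytokine gene, had 4.23 CPM in DPI 1 beside 0.102 to 0.371 CPM (0.935 of the range). Timp1 had 2.41 CPM in DPI 3 beside 0.0 to 0.408 CPM (0.831 of the range).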

How the results depend on the processing

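Under 18 alternatives, 0 of the 9 genes passed the fold rule in any comparison. Of 486 recomputed log2 fold changes of these genes, 450 kept their sign and their side of an unadjusted p of 0.05, 30 turned sign, and 6 fell under that p without reaching a 2-fold change. Of the 27 values, 13 turned sign somewhere. Irf8 turned for Veh against ND to -0.01 with RLE factors, -0.27 with library size alone and -0.01 with DESeq2, and for DPI against Veh to 0.01 with library size alone. Library size alone also turned Stat2 for Veh against ND to -0.17 and Irf1 for DPI against ND to -0.03. With the replicate block, Irf4 and Irf8 for DPI against ND turned to -0.28 and 0.09, and Stat3 was -0.79 (unadjusted p = 0.0306). The cause was not tested.

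With each library left out, the values that turned ran as follows. For Veh against ND, Stat2 ran from -0.34 to 1.04, Stat3 from -0.61 to 0.17, Stat6 from -0.70 to 0.58 and Irf8 from -0.09 to 0.14. For DPI against Veh, Stat5b ran from -0.16 to 0.39, Irf5 from -0.05 to 0.23 and Irf8 from -0.28 to 0.09. For DPI against ND, Stat2 ran from -0.92 to 0.46, Stat5a from -0.44 to 0.22, Stat6 from -0.88 to 0.40, Irf4 from -0.01 to 1.02 and Irf8 from -0.25 to 0.05.

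Over all genes, the fold rule for Veh against ND, DPI against Veh and DPI against ND gave 726, 202 and 527 genes with at least 10 counts in every library, and 602 for DPI against Veh without a filter. Leaving out libraries gave 1027 to 2634, 187 to 543 and 830 to 2626, highest without ND 2 in both comparisons with ND. Without ND 1 these were 1544 and 1193, with 3 and 4 adjusted calls against 568 and 572 without ND 2, and the cause was not tested. A lone ND library is assumed to vary like the other groups. Adjusted calls for Veh against ND were 1 with library size alone, 52 without a filter, 1 with at least 10 counts, 312 with DESeq2, 0 with 2 groups only, 0 with the replicate block and 15 after thinning. For DPI against ND they were 22 without a filter, 219 with DESeq2, 0 with 2 groups only, 0 with the replicate block and 4 after thinning, and for DPI against Veh 2 with DESeq2. Leaving out libraries gave 1 to 568, 0 to 0 and 1 to 572. The replicate block gave 897, 401 and 818 at the fold rule, and the numbers do not pair the mice.

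The count of genes held within 2-fold for Veh against ND was 2 with library size alone, at least 10 counts, the replicate block, no Rn45s and thinning, a count chosen after seeing the data. With libraries left out it ran from 1 to 1, 4 to 6 and 1 to 3. Of 810 recounts of the lists, a check added after seeing the data, 613 stayed within 1.5 times. Depth limits Irf4 and Stat5a most, at 14 and 24 counts in DPI 2.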
